A study of Homo sapiens with 9 samples.

Results

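The 10 genes described here encode transcription factors of the ETS family that act downstream of ERK signalling. They were chosen by gene symbol from the 58735 genes of the count table, and all 10 were present and passed the filter on low counts in every comparison. The genes fall into 4 groups: the PEA3 group (ETV1, ETV4 and ETV5), ETS1 and ETS2, the ternary complex factors (ELK1, ELK3 and ELK4), and the repressors ERF and ETV3. RNA was sequenced from MIA PaCa-2 cells, an established human pancreatic cancer cell line labelled as genotype WT, after a 24-h treatment with 0.1% DMSO (vehicle), with 1 μM Compound 1, an inhibitor of the kinases TBK1 and IKKε, or with 1 μM SCH772984, an inhibitor of ERK. Each condition had 3 libraries, all from the same line and without any other genetic change. The labels do not state that the libraries came from separate cultures, so p-values here measure the spread between these libraries, which may be technical.

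ETS factors share a DNA-binding domain that recognises a GGAA core. Growth factor and RAS signalling reaches them through phosphorylation by ERK: ETS1, ETS2, the PEA3 factors and the ternary complex factors then activate transcription more strongly, whereas ERF, a repressor, is exported from the nucleus. The PEA3 genes are themselves transcriptional outputs of the ERK pathway and are repressed by Capicua (CIC), which ERK signalling inactivates. The ternary complex factors bind DNA next to serum response factor (SRF) at immediate early genes such as EGR1.

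Total counts per library ranged from 9464432 to 10286223 with DMSO, from 9652741 to 9840769 with compound 1 and from 11056977 to 13887859 with SCH772984. Replicate 1 of compound 1 stood apart from the other two compound 1 libraries, with chi-square statistics (divided by their degrees of freedom) of 11.1 and 8.29 across genes, against 2.78 between replicates 2 and 3. Of the pancreatic cancer line's markers, the keratins KRT8 and KRT18 and vimentin were abundant and EPCAM had 0 counts in all 9 libraries. All 4 acinar markers were at 0, and the 4 leukocyte markers summed to at most 2.92 TPM (counts scaled for gene length and library total) in any library. The summed epithelial markers were 2460 to 2660 TPM with DMSO, 2220 to 2560 TPM with compound 1 and 942 to 1070 TPM with SCH772984. KRT8 averaged 2490 ± 71.0 CPM (counts scaled to the library total after its adjustment by TMM normalization) with DMSO and 771 ± 47.3 CPM with SCH772984, and KRT18 879 ± 46.3 and 167 ± 10.4 CPM (SD, n = 3). KRT19, the other tested marker of that list, was at 252 ± 25.8 and 272 ± 19.2 CPM and was not called, and CDH1 had 0 counts with DMSO and 5, 4 and 5 with SCH772984. The fibroblast list, which is carried by COL1A2, summed to 141 to 157 TPM with DMSO and 314 to 373 TPM with SCH772984. Of 3 tested mesenchymal markers 2 were lower by edgeR (VIM, log2 fold change -0.23, and ZEB1, -0.61) and 1 was higher (FN1, 1.72), where VIM lost its call with scaling by library size alone (-0.06), and the list summed to 1640 to 1730 TPM with DMSO and 1340 to 1670 TPM with SCH772984. The part of these shifts in the results below was not tested.

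Under DMSO the 10 genes spanned more than an order of magnitude per transcript length. On the TPM scale, which divides each count by the gene's length, ELK1 was highest at 130 ± 1.94, followed by ERF at 110 ± 9.0 and ETV5 at 43.4 ± 0.353 TPM (SD, n = 3). ETV4 (32.2 TPM), ELK3 (31.5 TPM) and ETS1 (30.4 TPM) followed, and the ranges of neighbours in this order overlapped. ETS2 (25.7 TPM), ELK4 (18.4 TPM), ETV3 (13.8 TPM) and ETV1 (3.80 TPM) completed the order without overlap of their ranges. Vehicle-treated cells therefore held transcripts of every group, with ETV1 the lowest of the PEA3 genes.

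With SCH772984 all 3 PEA3 genes fell to a few reads per library. ETV5, on chromosome 3 (hg38 186046308 to 186110318, minus strand), fell 93.2-fold, ETV4, on chromosome 17 (43527844 to 43579620, minus strand), fell 55.9-fold, and ETV1, on chromosome 7 (13891228 to 13991425, minus strand), fell 30.7-fold. Among the 13834 genes tested, these were the 4th, 6th and 10th lowest log2 fold changes. In bulk RNA, fewer cells of a type and less RNA per cell cannot be told apart.

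ETV5 encodes a PEA3 activator. It had 716, 666 and 655 counts with DMSO and 8, 10 and 12 counts with SCH772984, in replicate order. After TMM normalization these were 73.3, 73.4 and 71.6 CPM against 0.664, 0.842 and 0.803 CPM. Each SCH772984 library thus held about 1 CPM or less, far below the narrow range of the DMSO libraries. The log2 fold change was -6.54 (SE 0.15, 95% interval -6.85 to -6.24, edgeR adjusted p = 1.55e-34). ETV5 shares 164 of its 5802 exon bases with DGKG on the same strand, a gene with at most 1 count per library.

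ETV4, which gave the PEA3 group its name, had 339, 311 and 290 counts with DMSO and 10, 4 and 9 counts with SCH772984. The corresponding levels were 34.7, 34.3 and 31.7 CPM against 0.829, 0.337 and 0.602 CPM, again without overlap. The log2 fold change was -5.80 (SE 0.21, 95% interval -6.22 to -5.39, edgeR adjusted p = 9.77e-28). ETV4 shares 68 of its 3607 exon bases with DHX8 on the opposite strand, a gene with 807 to 1334 counts per library. The strand setting of the counting was not given in the sources used here. Whether any of the few remaining ETV4 reads came from DHX8 in those bases was not tested.

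ETV1, the third PEA3 gene, had 99, 99 and 97 counts with DMSO and 6, 0 and 7 counts with SCH772984. Its levels were 10.1, 10.9 and 10.6 CPM with DMSO and 0.498, 0 and 0.469 CPM with SCH772984, and 1 of the SCH772984 libraries therefore had no read on this gene. The log2 fold change was -4.94 (SE 0.33, 95% interval -5.61 to -4.27, edgeR adjusted p = 2.73e-17). The wider interval accompanies the lowest count of the group. ETV1 overlaps no other annotated gene.

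Promoter sequence from RefSeq (GRCh38.p14) was matched for 7 of the 10 genes, ETV1 among the PEA3 genes. The 250 bases before the listed start furthest upstream are shown for ETV1 and for ELK3, the genes with the largest falls in the PEA3 and ternary complex factor groups among those matched. Capitals mark the motif matches described after the sequences.
ETV1 (chr7:13991426-13991675, minus strand): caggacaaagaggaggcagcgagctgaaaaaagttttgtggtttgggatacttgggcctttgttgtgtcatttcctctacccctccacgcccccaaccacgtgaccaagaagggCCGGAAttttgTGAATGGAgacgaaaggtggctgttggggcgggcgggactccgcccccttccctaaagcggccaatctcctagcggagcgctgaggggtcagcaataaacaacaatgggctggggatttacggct
ELK3 (chr12:96194125-96194374, plus strand): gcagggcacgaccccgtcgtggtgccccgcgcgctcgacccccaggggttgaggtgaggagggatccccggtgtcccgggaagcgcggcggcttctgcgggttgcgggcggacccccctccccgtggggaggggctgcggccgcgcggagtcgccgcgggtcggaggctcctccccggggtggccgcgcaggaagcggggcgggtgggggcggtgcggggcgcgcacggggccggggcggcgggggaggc
The search covered both strands for the ETS core CCGGAA, for the CIC octamers TGAATGAA, TGAATGGA, TCAATGAA and TCAATGGA, for the AP-1 sites TGACTCA and TGAGTCA, and for the serum response element. The ETV1 window held 1 ETS core, 131 to 136 bases upstream of the start, and 1 CIC octamer, 118 to 125 bases upstream. The ETS core was found in 14.8% and a CIC octamer in 3.33% of 27305 promoter windows of the same length. ELK4 held 2 ETS cores, and the windows of ETS2, ELK1, ELK3, ERF and ETV3 held none of the 4 motif types. The matches describe these letters only.

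**Figure D1:**
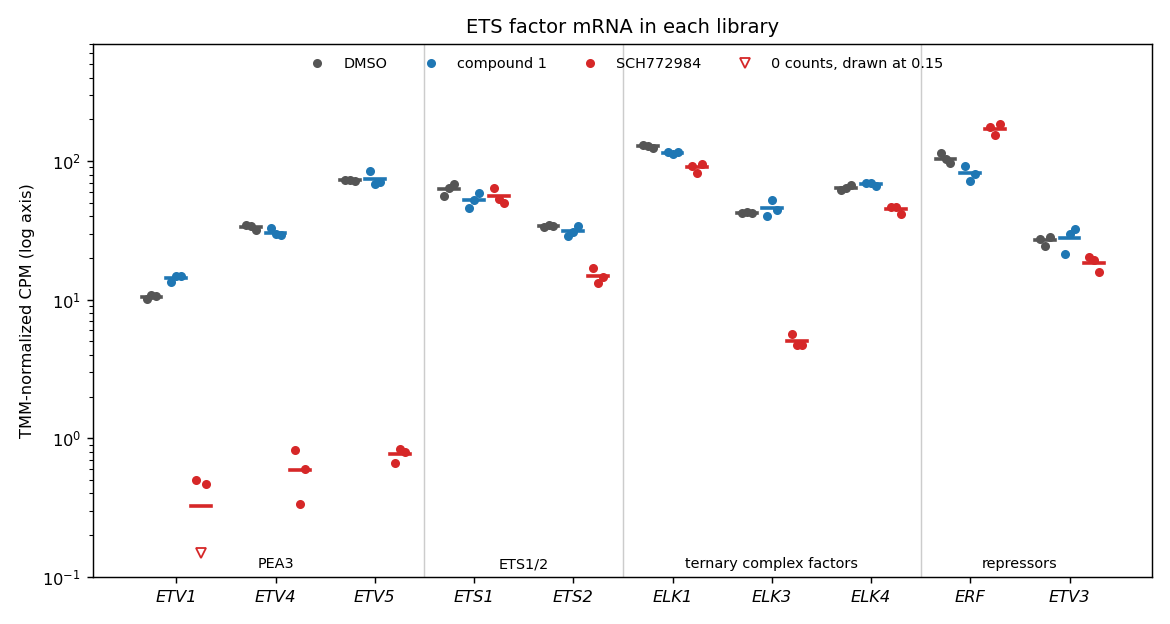
TMM-normalized CPM (log axis) of the 10 ETS factor genes in each library; points are libraries, horizontal bars are means over 3 libraries, and the open triangle is the SCH772984 library with 0 ETV1 counts. The PEA3 genes sit below 1 CPM in every SCH772984 library, while compound 1 libraries lie near the DMSO libraries.

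Over all 10 genes, 8 were lower and 1 higher with SCH772984 by edgeR at an adjusted p under 0.05, and DESeq2 gave the same counts. This inhibitor changed much of the transcriptome: 35.5% of tested genes were lower and 37.2% were higher. The groups of libraries did not overlap for 9 of the 10 genes, the exception being ETS1, and for 74.4% of all tested genes. The median log2 fold change was -5.80 for the PEA3 group, -0.69 for ETS1 and ETS2, -0.53 for the ternary complex factors and 0.09 for the repressors, beside 0.03 for all tested genes. Scaling by library size alone raised the median of all genes by 0.17 on the log2 scale, and no member changed direction with it.

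ELK3, on chromosome 12 (96194382 to 96269835, plus strand), was the exception among the ternary complex factors. ELK3 (also known as Net) can repress its targets until ERK phosphorylates it. Its levels were 42.3, 42.8 and 42.0 CPM with DMSO and 5.64, 4.71 and 4.75 CPM with SCH772984, a fall of 8.44-fold. The log2 fold change was -3.08 (SE 0.13, 95% interval -3.33 to -2.82, edgeR adjusted p = 2.78e-25), the 53rd lowest of 13834. Its interval did not meet that of ETV1, the PEA3 gene with the smallest fall. ELK3 shares 209 of its 4648 exon bases with AC008149.1 on the opposite strand, which had 0 counts in all libraries.

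ELK1 (chromosome X, 47635521 to 47650604, minus strand) and ELK4 (chromosome 1, 205597556 to 205631962, minus strand), the other ternary complex factors, fell by less. ELK1 had 130, 129 and 125 CPM with DMSO and 92.9, 81.6 and 95.7 CPM with SCH772984, which is 1.42-fold lower (log2 fold change -0.51, SE 0.07, edgeR adjusted p = 1.67e-08). ELK4 had 61.5, 64.2 and 67.3 CPM with DMSO and 46.3, 46.6 and 41.8 CPM with SCH772984, which is 1.44-fold lower (log2 fold change -0.53, SE 0.08, edgeR adjusted p = 1.93e-07). For both genes the SCH772984 libraries lay below all DMSO libraries, although most of each transcript remained. Pseudogenes related to ELK1 had at most 1 count. ELK4 shares 422 of its 12142 exon bases with MFSD4A on the opposite strand, which had at most 16 counts. It also shares 33 exon bases with AC096533.1 on the opposite strand, which had at most 2 counts.

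ETS1 (chromosome 11, 128458761 to 128587558, minus strand) and ETS2 (chromosome 21, 38805307 to 38824955, plus strand) are activators that ERK phosphorylates, and ETS2 was the one that passed the test. ETS2 had 33.7, 34.8 and 33.8 CPM with DMSO and 16.8, 13.3 and 14.7 CPM with SCH772984, a 2.29-fold fall (log2 fold change -1.19, SE 0.11, edgeR adjusted p = 5.23e-13). ETS1 had 56.2, 63.6 and 68.6 CPM with DMSO and 64.3, 53.1 and 49.7 CPM with SCH772984, and these ranges overlapped. Its log2 fold change of -0.18 (SE 0.09) did not pass the threshold (edgeR adjusted p = 0.0681). It passed without SCH772984 replicate 1 (log2 fold change -0.31, edgeR adjusted p = 0.00283) and without DMSO replicate 1 (-0.28, edgeR adjusted p = 0.0127), and was -0.01 with scaling by library size alone.

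The repressors moved apart. ERF, on chromosome 19 (42247572 to 42255157, minus strand), was the only one of the 10 genes that rose. It had 114, 103 and 96.2 CPM with DMSO and 175, 155 and 185 CPM with SCH772984, so that every SCH772984 library exceeded every DMSO library. The rise was 1.64-fold (log2 fold change 0.71, SE 0.07, 95% interval 0.57 to 0.86, edgeR adjusted p = 7.09e-12). ERF shares 155 of its 3295 exon bases with AC006486.1 on the same strand, which had 0 counts in all libraries. ETV3, a repressor on chromosome 1 (157121191 to 157138474, minus strand), had 27.3, 24.6 and 28.4 CPM with DMSO and 20.2, 19.5 and 15.8 CPM with SCH772984, a 1.46-fold fall (log2 fold change -0.54, SE 0.12, edgeR adjusted p = 5.93e-05).

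**Figure D2:**
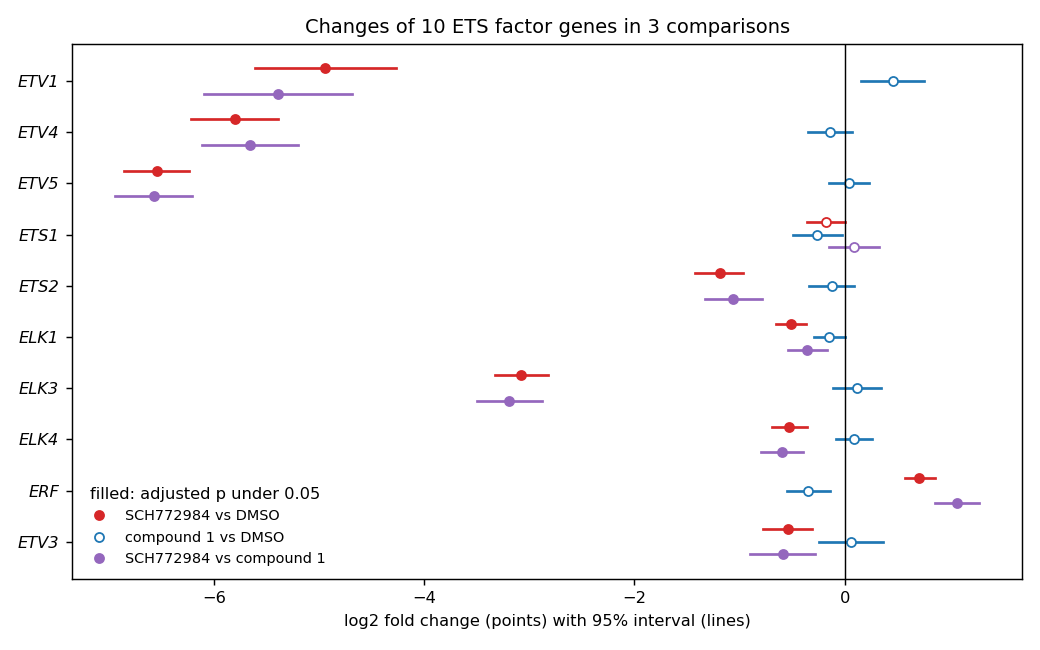
Log2 fold change of each of the 10 genes (points) with its 95% interval (lines) for SCH772984 against DMSO, compound 1 against DMSO, and SCH772984 against compound 1; filled points passed an edgeR adjusted p under 0.05. The PEA3 genes lie between -6.57 and -4.94 in both comparisons of SCH772984, and no compound 1 point is filled.

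With compound 1 none of the 10 genes changed at an adjusted p under 0.05 by edgeR, beside 0.374% of 12849 tested genes lower and 0.49% higher. At an unadjusted p under 0.05, 2 of the 10 were lower (ERF and ETS1) and 1 was higher (ETV1), beside 7.69% of all tested genes lower and 7.35% higher. DESeq2 called 1 gene, ERF, which was lower (adjusted p = 0.0487). The 95% intervals of ETV5 (-0.15 to 0.23 around a log2 fold change of 0.04) and ETV4 (-0.35 to 0.07 around -0.14) contained 0 and left out changes as large as those with SCH772984. The compound 1 and SCH772984 comparisons share the same DMSO libraries.

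ETV1 lay above the DMSO range with compound 1, at 13.4, 14.9 and 14.9 CPM. Its log2 fold change was 0.46 (SE 0.14, unadjusted p = 0.00448, edgeR adjusted p = 0.129). ERF lay below the DMSO range, at 92.9, 72.4 and 80.8 CPM, with a log2 fold change of -0.35 (SE 0.09, unadjusted p = 0.00226, edgeR adjusted p = 0.096). Each gene passed the threshold once replicate 1 of compound 1, the library that stood apart, was left out. Over all tested genes that step raised the calls from 48 to 798 lower and from 63 to 453 higher. ETV1 then had a log2 fold change of 0.51 (edgeR adjusted p = 0.028) and ERF had a log2 fold change of -0.44 (edgeR adjusted p = 9.27e-05).

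The other genes stayed close to the vehicle. ETV5 had 84.4, 68.7 and 71.0 CPM with compound 1 and ETV4 32.7, 29.6 and 29.1 CPM, ranges that overlapped those with DMSO. ELK1, at 117, 113 and 116 CPM, lay below all DMSO libraries, but its log2 fold change of -0.15 (SE 0.07) had an edgeR adjusted p of 0.338. ETS1 was at 45.9, 52.3 and 58.7 CPM, with a log2 fold change of -0.26 (SE 0.11, edgeR adjusted p = 0.261). ELK3 (40.1 to 52.8 CPM), ELK4 (66.1 to 69.4 CPM), ETS2 (28.8 to 33.9 CPM) and ETV3 (21.3 to 32.3 CPM) overlapped their DMSO ranges and had log2 fold changes between -0.12 and 0.12. The groups of libraries did not overlap for 3 of the 10 genes (ETV1, ELK1 and ERF), beside 20.9% of all tested genes.

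Set directly against each other, SCH772984 gave lower levels than compound 1 for 8 of the 10 genes and a higher level for 1, beside 32.6% of 13863 tested genes lower and 33.7% higher. ETV5 was 95.3-fold lower, ETV4 50.5-fold lower and ETV1 41.9-fold lower (edgeR adjusted p = 7.84e-17, 1.67e-14 and 1.64e-11). ELK3 was 9.11-fold lower and ETS2 2.08-fold lower, with edgeR adjusted p = 2.29e-13 and 3.85e-07. ELK4, ETV3 and ELK1 were 1.52-fold, 1.51-fold and 1.28-fold lower (edgeR adjusted p = 1.29e-05, 0.00168 and 0.00168). ERF was 2.10-fold higher (log2 fold change 1.07, SE 0.10, edgeR adjusted p = 7.61e-09). ETS1 had a log2 fold change of 0.09 with a 95% interval of -0.15 to 0.33 (edgeR adjusted p = 0.509). The response of 9 of the 10 ETS genes to the inhibitors thus differed by a test of that difference.

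The make-up of the ETS transcript pool is given as shares, with no test. The summed TPM of all 28 ETS family genes was 573 ± 4.44 with DMSO, 525 ± 33.8 with compound 1 and 502 ± 34.9 with SCH772984 (SD, n = 3). The PEA3 genes made up between 13.5% and 14.1% of that sum in the DMSO libraries, 16.9%, 14.3% and 14.3% with compound 1, and 0.275%, 0.184% and 0.253% with SCH772984. The repressors made up 21.5% ± 1.46 with DMSO, 19.3% ± 1.8 with compound 1, where the range overlapped that with DMSO, and 39.7% ± 1.72 with SCH772984, where ERF alone made up 37.7%. The ternary complex factors made up 31.5% ± 0.238 with DMSO, 32.8% ± 0.668 with compound 1 and 22.7% ± 0.564 with SCH772984. By TPM, ERF passed ELK1 to become the highest of the 10 genes with SCH772984 (189 ± 16.5 against 96.3 ± 8.31 TPM), and ETV4, ETV5 and ETV1 became the lowest.

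**Figure D3:**
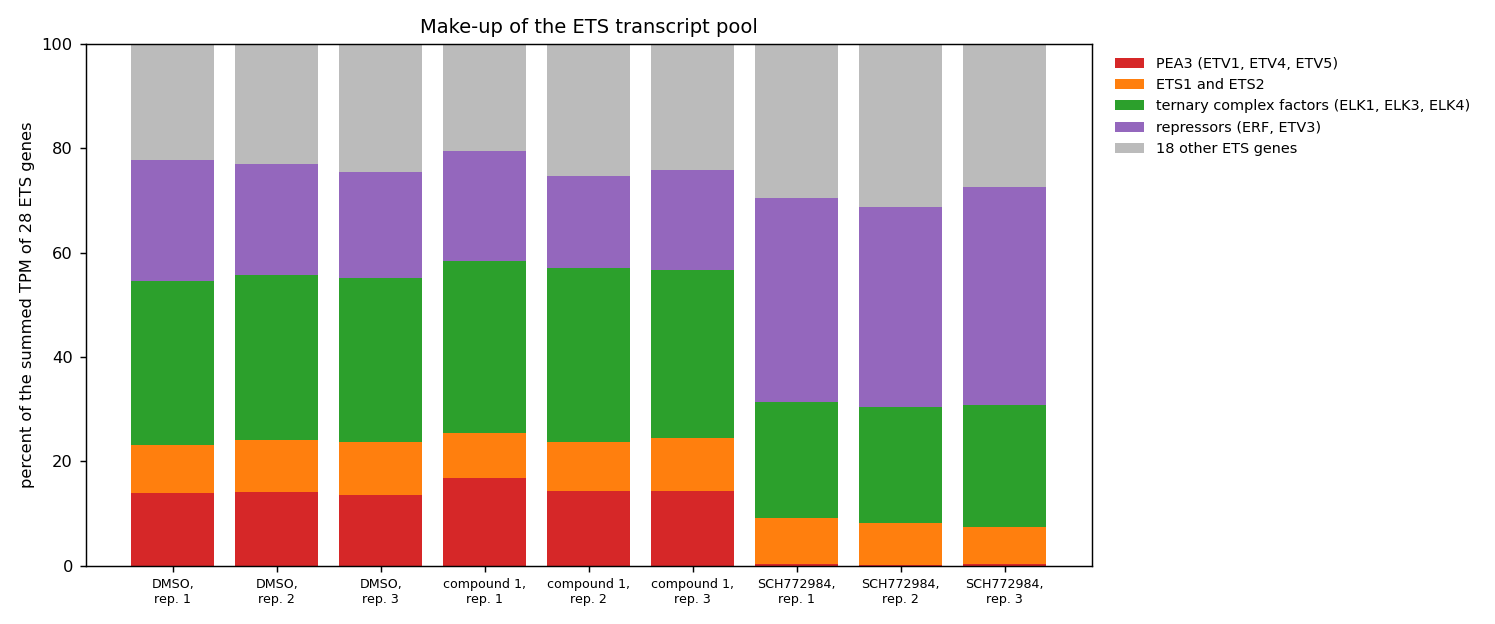
Share of the summed TPM of 28 ETS family genes (y axis, percent) held by each group in each of the 9 libraries (x axis). The PEA3 share is between 13.5% and 16.9% in the DMSO and compound 1 libraries and at most 0.275% in the SCH772984 libraries, where the repressor share is 38.5% to 41.7%.

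Of the 18 other ETS genes, 8 were tested with SCH772984, and 3 were lower and 4 higher by edgeR, near the 35.5% lower and 37.2% higher of all tested genes. ETV6, a repressor of the family, had 15.8, 14.9 and 13.9 CPM with DMSO and 1.24, 1.68 and 1.27 CPM with SCH772984 (log2 fold change -3.41, SE 0.21, edgeR adjusted p = 5.67e-19). ELF3, an epithelial ETS factor, moved the other way, from 2.15, 2.32 and 1.75 CPM to 21.6, 17.3 and 18.5 CPM (log2 fold change 3.20, SE 0.19, edgeR adjusted p = 1.59e-19). ELF1 (log2 fold change 0.96), EHF (0.55) and ETV2 (1.13) were also higher, and ELF4 (-1.08) and GABPA (-0.26) were lower. ELF2 (-0.25, SE 0.14) did not pass the threshold. ETV2 had 1 to 9 counts with DMSO and lost its call without DMSO replicate 1, where its log2 fold change was 0.58. GABPA lost its call with scaling by library size alone, where its log2 fold change was -0.09. Of the untested genes, ETV3L, ERG, FEV and SPIC had 0 counts in all libraries.

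Genes that read out or shape ETS activity were taken from 5 further lists, whose counts stand beside the same 35.5% lower and 37.2% higher of all tested genes. Of 7 tested genes of the ERK output signature outside the members, 6 were lower and 1 higher with SCH772984. SPRY4, a feedback inhibitor of receptor signalling, fell from 231 ± 5.21 to 2.00 ± 0.646 CPM, and EPHA2, a receptor tyrosine kinase, from 894 ± 28.2 to 23.7 ± 1.42 CPM (SD, n = 3). DUSP6, the ERK phosphatase, had 40, 25 and 51 counts with DMSO and 0, 1 and 0 with SCH772984. EPHA4 was higher (log2 fold change 1.48, SE 0.06, edgeR adjusted p = 2.20e-25).

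Of 6 tested regulators of the PEA3 genes and proteins, 3 were lower, 1 was higher and 2 did not pass. CIC, the repressor of the PEA3 genes, rose from 81.4 ± 2.77 CPM to 214, 200 and 237 CPM (log2 fold change 1.41, SE 0.07, edgeR adjusted p = 2.19e-22). ATXN1L, the partner of CIC, and DDB1 and CUL4A, parts of the ubiquitin ligase that degrades PEA3 proteins, were lower, by -0.36, -0.35 and -0.33 on the log2 scale. COP1, another part of that ligase, was 1 of the 2 that did not pass (edgeR adjusted p = 0.981). It had 38.6 ± 2.95 CPM with DMSO and 38.7 ± 3.47 CPM with SCH772984. With compound 1 CIC was at 72.5, 66.6 and 70.4 CPM (log2 fold change -0.22, edgeR adjusted p = 0.201).

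Of 4 genes for SRF and cofactors of SRF or of the ternary complex factors, SRF was lower and 3 were higher. SRF had a log2 fold change of -0.86 (SE 0.07), while MRTFA (0.66) and MRTFB (0.97), coactivators that compete with the ternary complex factors for SRF, and MED23 (0.69), the Mediator subunit that binds ELK1, were higher. Among 5 tested targets of the ternary complex factors and SRF, EGR1 (-3.45, SE 0.22), IER2 (-2.22, SE 0.10) and MCL1 (-0.58, SE 0.06) were lower, JUNB (0.71, SE 0.10) was higher and FOS (0.53, SE 0.29) did not pass. Of 6 tested matrix turnover genes that ETS and AP-1 factors can activate, 4 were lower and 2 higher. PLAUR, the urokinase receptor, had a log2 fold change of -4.04 (SE 0.18), the collagenase MMP1 of -3.79 (SE 0.17) and TIMP1, a metalloproteinase inhibitor, of -1.91 (SE 0.07). MMP10 had 0, 1 and 0 counts with DMSO and 11, 11 and 17 with SCH772984.

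With compound 1, the same lists and the other ETS genes gave 33 tested genes, of which 1 was higher and 0 were lower by edgeR, beside 0.49% and 0.374% of all tested genes. The call was PLAU, which encodes urokinase and was named after its value was seen (log2 fold change 0.37, SE 0.08, edgeR adjusted p = 0.0365). It lost this call in 4 of 14 alternatives, with DMSO replicate 1, 2 or 3 or compound 1 replicate 3 left out (edgeR adjusted p = 0.195, 0.263, 0.188 and 0.0753). Its log2 fold changes in those 4 fits were 0.40, 0.37, 0.34 and 0.42. With SCH772984 against DMSO, PLAU was lower (log2 fold change -1.79, SE 0.07, edgeR adjusted p = 3.39e-26). Of the 33 genes tested with compound 1, 8 were lower and 5 higher at an unadjusted p under 0.05, beside 7.69% and 7.35% of all tested genes, and DESeq2 called 1. Of the 7 other ETS genes tested, 1 was lower at the unadjusted threshold, ELF4 (log2 fold change -0.32, SE 0.09, unadjusted p = 0.00304, edgeR adjusted p = 0.109).

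**Figure D4:**
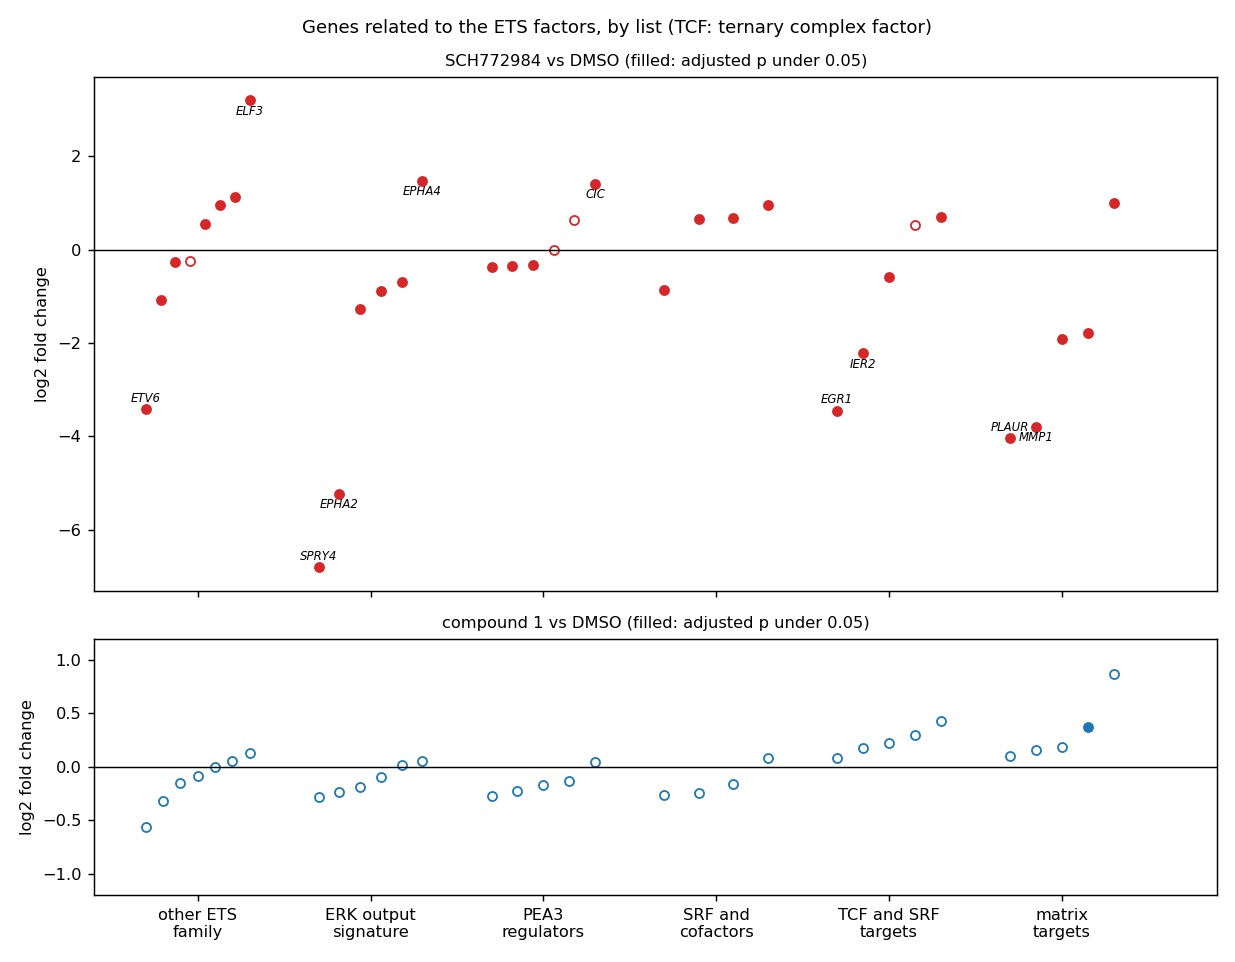
Log2 fold changes (y axis) of tested genes from 6 lists (x axis), with SCH772984 in the upper panel and compound 1 in the lower panel; filled points passed an edgeR adjusted p under 0.05, the y axes differ, and DUSP6 and MMP10, which had almost no counts in one group, are left out. Points with SCH772984 spread from -6.81 (SPRY4) to 3.20 (ELF3), and 1 point is filled with compound 1.

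The genes whose pattern over the 9 libraries was most like that of each PEA3 gene were found among 9944 protein-coding genes by Euclidean distance on the log2(CPM + 1) scale, centred on the DMSO mean. Candidates averaged at least 5 CPM, and the added 1 limits the fall that a gene of low level can show on this scale, so the distances depend on level as well as on response. ETV5 was nearest to EPHA2 (distance 0.53), FOSL1 (0.82) and SPRY4 (1.63). Their fitted log2 fold changes with SCH772984 were -5.24, -5.94 and -6.81, beside -6.54 for ETV5. ETV4 was nearest to NTSR1 (0.46), CXCL1 (0.84) and EPHA2 (1.33), whose fitted values were -4.48, -4.68 and -5.24, beside -5.80 for ETV4. ETV1 was nearest to EGR1 (0.73), SHH (0.81) and ADORA1 (0.86), whose fitted log2 fold changes with SCH772984 were -3.45, -3.14 and -3.54 beside -4.94 for ETV1. FOSL1, an AP-1 subunit, averaged 104 ± 3.07 CPM with DMSO and 1.62 ± 0.937 CPM with SCH772984, and NTSR1, a neurotensin receptor, 192 ± 11.9 and 8.59 ± 0.712 CPM. CXCL1, a chemokine, went from 118 ± 8.44 to 4.63 ± 0.313 CPM, the morphogen gene SHH from 28.9 ± 3.47 to 3.29 ± 0.747 CPM and ADORA1, an adenosine receptor, from 53.3 ± 4.5 to 4.56 ± 0.521 CPM. EPHA2, SPRY4 and EGR1 are also on the lists above, and all likeness rests on the same 9 libraries.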

How the data were processed

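The authors deposited raw counts per gene, without normalization, for 9 libraries sequenced by Novogene. The submitters' processing notes name HISAT2 2.0.5, featureCounts 1.5.0-p3 and hg38, and the strand setting is not given in the sources used here. All 58735 genes matched GENCODE release 29. Libraries were grouped by their labels. Each pair of conditions was fitted alone with edgeR 4.0.16 in R 4.3.3 (quasi-likelihood test, robust, TMM, filterByExpr with minimum count 10 and minimum total 15), and p-values were adjusted by Benjamini-Hochberg over all tested genes. DESeq2 1.42.0 was an alternative. CPM values use TMM factors over all 9 libraries, and TPM values were computed from the counts and the gene length in the table. Library totals of 9464432 to 13887859 counts set the precision, and 3 counts were taken as the floor. On simulated counts with genes changed 2-fold, 89.7% (SCH772984 against DMSO), 84.7% (compound 1 against DMSO) and 87.7% (SCH772984 against compound 1) were recovered. Each simulation changed only 195 or 196 of the tested genes, in random directions. Recovery under a shift as wide as that with SCH772984 was not tested. A further gene list is not reported here. The members and lists were chosen with earlier results of these data known. Named genes were all members, the tested ETS genes, up to 4 called genes of each further list with the largest change, 3 nearest genes for each PEA3 member and genes sharing exon bases with a member. FOS, COP1, PLAU, CDH5, the other cell type markers and the untested ETS genes fall outside this rule and were named after their values were seen. The alternatives were other scalings, filters, samples, call rules, tools and depths, a replicate block, and leaving out each library.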

Additional observations from a re-analysis of the deposited data

How the results depend on the processing

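All 10 members kept their direction with SCH772984 against DMSO in every alternative that could fit them. The 8 lower members became 5 when at least 10 counts were required in every library, because ETV1, ETV4 and ETV5 were then not tested, and 5 lower and 0 higher when a change of at least 2-fold was required. Against compound 1 the 8 lower members likewise became 5 under each of these. The 2-fold rule gave 1472 lower and 2517 higher genes against DMSO and 1396 lower and 2293 higher against compound 1. The PEA3 median ranged from -6.10 to -5.56 with single libraries left out, and the median of the ternary complex factors and repressors was -0.35 with library size alone. ETS1 with SCH772984 passed the threshold with no filter (adjusted p = 0.0244). Scaling by the library totals alone gave 3911 lower and 6242 higher genes for SCH772984 against DMSO (4916 and 5150 with TMM), 3736 and 5526 for SCH772984 against compound 1 (4519 and 4674), and 25 and 85 for compound 1 (48 and 63).

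The counts for compound 1 were the least stable. Lower genes numbered 228 with no filter, 97 with all 9 libraries in one fit, 119 with DESeq2, 988 at an unadjusted p and 0 at 2-fold, and higher genes 189 with no filter, 117 with DESeq2, 945 unadjusted and 6 at 2-fold. Leaving out single libraries gave 3 to 798 lower and 5 to 453 higher genes, the highest of each without compound 1 replicate 1, and 0 to 1 members lower and 0 to 1 higher. ERF was the 1 member lower with no filter and with DESeq2, and 2 were lower and 1 higher unadjusted. Log2 fold changes near 0 turned sign: with single libraries left out, ETV5 ranged from -0.05 to 0.09 (lowest without compound 1 replicate 1), ELK3 from -0.001 (without compound 1 replicate 2) to 0.21, and ETV3 from -0.07 to 0.22, with -0.0027 without DMSO replicate 2 and -0.002 and -0.07 without compound 1 replicates 2 and 3. ETS1 with SCH772984 against compound 1 ranged from -0.03 (without SCH772984 replicate 1) to 0.17. The causes were not tested. By CPM in place of TPM, ETV4, ELK3, ETS1 and ELK4 ranked 8, 6, 5 and 4 with DMSO. For other ETS genes, recomputed after seeing the data, GABPA lost its call with library size alone (-0.09) and in the fit of all 9 libraries (-0.25), and ETV2 with no filter (1.09), in the fit of all 9 libraries (1.13), with DESeq2 (1.11) and without SCH772984 replicate 2 (1.2) or 3 (0.89).

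The replicate numbers did not meet the criterion for pairing, a correlation over 0.1 in every pair: same-numbered libraries of SCH772984 and DMSO had correlated deviations of 0.018, -0.006 and 0.043, and those of compound 1 and DMSO 0.139, -0.018 and 0.015, and those of SCH772984 and compound 1 -0.075, 0.155 and -0.103. With the replicate block, compound 1 had 219 lower and 193 higher genes and 1 member lower (ERF, adjusted p = 0.0163), and ETS1 with SCH772984 had an adjusted p of 0.0372.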

Other observations

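Among the ETS genes too low to be tested, ELF5 had 1, 5 and 1 counts and ETV7 had 0, 1 and 6 counts in the SCH772984 libraries, and both had 0 counts in the 6 other libraries. SPIB had 3, 3 and 8 counts with DMSO, 5, 9 and 6 with compound 1 and 1, 0 and 2 with SCH772984. CDH5, an endothelial cadherin gene that endothelial ETS factors such as ERG can activate, was named after its values were seen. It had 28, 40 and 39 counts with DMSO, 63, 61 and 60 with compound 1 and 0, 1 and 4 with SCH772984, in libraries with 0 counts for ERG and KDR. With SCH772984 it was the 1 tested gene of the endothelial list and was lower by edgeR, and no fold is given because 2 of the 3 libraries were below the floor of 3 counts. With compound 1 it had a log2 fold change of 0.75, which passed at an unadjusted p and not at an adjusted p under 0.05 by edgeR.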
